A study of Mus musculus with 12 samples.

Results

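The mature miRNAs described here were both arms of miR-199a, miR-199b and miR-214, named mmu-miR-199a-5p, mmu-miR-199a-3p, mmu-miR-199b-5p, mmu-miR-199b-3p, mmu-miR-214-5p and mmu-miR-214-3p and taken by name from a table of 1966 mature miRNAs that covered the 4 ages of the study. These 6 miRNAs all passed the filter on low counts, after which 809 miRNAs were tested. The quadriceps of untreated C57BL/6J mice, all wild type, gave the small RNA libraries, which were made 1, 5, 14 or 90 days after birth (groups P1, P5, P14, P90) from 3 animals per group. The comparison follows the growth of a limb muscle from the newborn to the adult. Whole muscle was homogenized, so fewer cells of a type and less RNA per cell cannot be told apart in these libraries.

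The miR-199 and miR-214 hairpins lie within introns of the dynamin genes, on the opposite strand. One of the miR-199a hairpins and the miR-214 hairpin are processed from a shared long noncoding RNA, Dnm3os, which is known from embryonic mesenchyme, connective tissue and fibroblasts and is a target of the mesenchymal factor Twist1. A miRNA finds its targets mainly through its seed, a short stretch near its 5′ end, and each hairpin can give a mature miRNA from its 5′ arm (5p) and from its 3′ arm (3p). In muscle, miR-214-3p is known to repress Ezh2, a Polycomb methyltransferase, miR-199a-5p has been linked to Wnt signalling, and miR-199a-3p to mTOR.

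The mature sequences show which of the names stand for different molecules. They are written 5′ to 3′ from RefSeq (GRCm38.p6), with the seed, bases 2 to 8, in capitals.
miR-199a-5p: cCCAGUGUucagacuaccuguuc
miR-199a-3p: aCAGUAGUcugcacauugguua
miR-199b-3p: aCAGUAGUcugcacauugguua
miR-214-5p: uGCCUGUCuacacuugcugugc
miR-214-3p: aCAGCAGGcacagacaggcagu
The sequences of miR-199a-3p and miR-199b-3p were identical over all 22 bases, so that these names stood for 1 molecule and shared a seed. No other seed was shared among the 5 sequences shown. The mature sequence of miR-199b-5p was not among those matched, so its seed was not compared. The miR-199b hairpin, printed below, holds the letters of the miR-199a-5p seed. Outside the group, miR-761 carried the seed of miR-214-3p, and it had 0 counts in all 12 libraries, under the floor of 3 counts per library.

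The 4 hairpins had different sequences, and those of miR-199 had the 3p sequence in common. Those of miR-199 are shown with the common 3p sequence in capitals, and the miR-214 hairpin with both mature arms in capitals. The miR-199a-2 hairpin lies at chr1:162217814-162217923 on the plus strand (GRCm38.p6), in an exon of Dnm3os and, on the other strand, an intron of Dnm3.
Mir199a-2: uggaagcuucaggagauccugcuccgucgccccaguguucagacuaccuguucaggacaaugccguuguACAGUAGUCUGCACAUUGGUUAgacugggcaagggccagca
The miR-214 hairpin lies at chr1:162223368-162223477 on the plus strand, in an exon of the same Dnm3os transcript, with 5444 bases between it and the miR-199a-2 hairpin.
Mir214: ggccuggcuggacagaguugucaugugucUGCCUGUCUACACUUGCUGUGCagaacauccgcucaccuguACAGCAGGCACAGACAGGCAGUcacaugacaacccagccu
The remaining hairpins are miR-199a-1 at chr9:21496495-21496564 on the minus strand, in an intron of Dnm2 and opposite to it, and miR-199b at chr2:32318460-32318569 on the plus strand, in an intron of Dnm1 and opposite to it.
Mir199a-1: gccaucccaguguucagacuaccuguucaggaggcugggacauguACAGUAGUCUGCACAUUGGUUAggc
Mir199b: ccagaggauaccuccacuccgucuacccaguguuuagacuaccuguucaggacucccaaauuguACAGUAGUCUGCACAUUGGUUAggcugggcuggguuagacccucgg
The 3p sequence was thus present in 3 hairpins, 1 of them miR-199b. None of the 4 hairpins had an annotated miRNA hairpin on its opposite strand.

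The libraries held between 20363495 and 53126984 counts of mature miRNAs, with the deepest at P90. Values are given as counts per 1000000 counts of the library (CPM), normalised with the trimmed mean of M-values (TMM), which rescales each library by a trimmed mean of its log ratios to a reference library. The TMM factors were 1.24 to 1.72 at P1, P5 and P14 and 0.247 to 0.384 at P90. The 6 miRNAs fixed as muscle fibre markers, among them miR-1a-3p and miR-133a-3p, summed to 262942 to 304177 CPM of the library totals at P1 and 559098 to 586318 at P90, so the markers of the labelled tissue were abundant. Normalised, these markers summed to 1455480 to 2374480 CPM at P90, over 1000000, so normalised CPM is not a share of a library. Each fold change against P90 depended on the scaling.

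Before any scaling, the 6 miRNAs together took 2.58% ± 0.416 of all counts in the P1 libraries (SD, n = 3), 1.58% ± 0.232 in those of P5, 0.963% ± 0.0681 in those of P14 and 0.105% ± 0.0312 in those of P90. The libraries did not overlap between any of the ages, with shares of 2.32% to 3.06% at P1 and of 0.0822% to 0.140% at P90. The 95% Wilson intervals reached at most 0.00669 percentage points to either side and covered counting error only. By mean CPM of the library totals, the miR-199a-3p row was the 14th most abundant of the table at P1 and the 46th at P90. The miR-199b-3p row, which holds the same molecule, was ranked apart, at place 31 at P1 and 58 at P90. For miR-199a-5p the place went from the 36th to the 75th.

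After TMM normalisation, the mean level of each of the 6 miRNAs was highest at P1, lower at P5, lower again at P14 and lowest at P90. All 6 differed across the ages by the edgeR quasi-likelihood test, where 72.4% of the tested miRNAs did. With upper-quartile factors miR-199b-5p was not called (edgeR adjusted p = 0.15). Between P1 and P90 all 6 fell, by 3.64-fold to 7.23-fold, while 66.4% of the tested miRNAs were called in that comparison, 41.2% lower and 25.2% higher. Their median log2 fold change was -2.51, beside -0.72 over all tested miRNAs. For each of the 6, 28.3% to 37.3% of the tested miRNAs had a more negative log2 fold change, so with TMM factors a decline was common and larger declines were numerous. With upper-quartile factors the median over all tested miRNAs was 1.18, and 23.7% were called lower.

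By its value, the fall was largest for miR-199a-5p, the arm linked to Wnt signalling. Its level was 3555, 3778 and 3141 normalised CPM in P1 replicates 1, 2 and 3, then 2747, 2017 and 2546 at P5, 1438, 1396 and 1882 at P14, and 539, 420 and 490 at P90. Every library of an age lay below every library of the age before it. The level at P90 was 7.23-fold lower than at P1, a log2 fold change of -2.85 ± 0.17 (SE, n = 3 per age, edgeR adjusted p = 2.8e-10).

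The miR-199 3p sequence, linked to mTOR, was the most abundant of the group under its miR-199a-3p name. That row held 7428, 8320 and 6953 normalised CPM at P1, 6558, 5177 and 5949 at P5, 2545, 2091 and 3021 at P14, and 1870, 1306 and 1723 at P90. All 4 ages were separated without overlap, with the widest gap between P5 and P14. The miR-199b-3p row gave 3859 ± 383 normalised CPM at P1 and 854 ± 151 at P90 (SD, n = 3). It took 33.6% to 34.7% of the summed 3p counts in each of the 12 libraries, where 1 hairpin of 3 would be 33.3%, and since identical sequences cannot be told apart, the split is no measurement of the separate hairpins. Summed, the 3p level was 11426 ± 1077 normalised CPM at P1, 8920 ± 1045 at P5, 3870 ± 707 at P14 and finally 2487 ± 443 at P90, and its log2 fold change from P1 to P90 was -2.25 ± 0.16 (SE, edgeR adjusted p = 5.1e-09).

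The 5p arm of miR-199b was far less abundant than that of miR-199a and declined least. Its level was 110, 113 and 95.8 normalised CPM at P1, 92.3, 76.5 and 101 at P5, 58.6, 65.9 and 70.2 at P14, and 36.6, 22.0 and 29.1 at P90. The P1 and P5 libraries overlapped, as replicate 3 of P5 exceeded replicate 3 of P1, and the later ages did not. From P1 to P90 the fall was 3.64-fold, a log2 fold change of -1.87 ± 0.19 (SE, edgeR adjusted p = 3.3e-07). The 5p arms of both genes are closely related, and how their reads were divided is not known, which leaves this level uncertain.

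The dominant arm of the miR-214 hairpin was miR-214-3p, the repressor of Ezh2. Its level was 1148, 1398 and 1029 normalised CPM at P1, 953, 709 and 920 at P5, 637, 776 and 817 at P14, and 227, 124 and 161 at P90. The P5 and P14 libraries overlapped and the P90 libraries stood well below the rest. The level was 7.0-fold lower at P90 than at P1, within 1 SE of the fall of miR-199a-5p, at a log2 fold change of -2.81 ± 0.22 (SE, edgeR adjusted p = 8.5e-09). The minor arm, miR-214-5p, was the least abundant of the group with 91.6, 102 and 86.4 normalised CPM at P1, 73.7, 57.6 and 69.3 at P5, 37.8, 35.2 and 47.4 at P14, and 14.6, 12.5 and 12.2 at P90. Its 4 ages did not overlap, and it fell 7.13-fold from P1 to P90 on counts of at least 147 per library (log2 fold change -2.83 ± 0.18, SE, edgeR adjusted p = 7.3e-10).

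**Figure D1:**
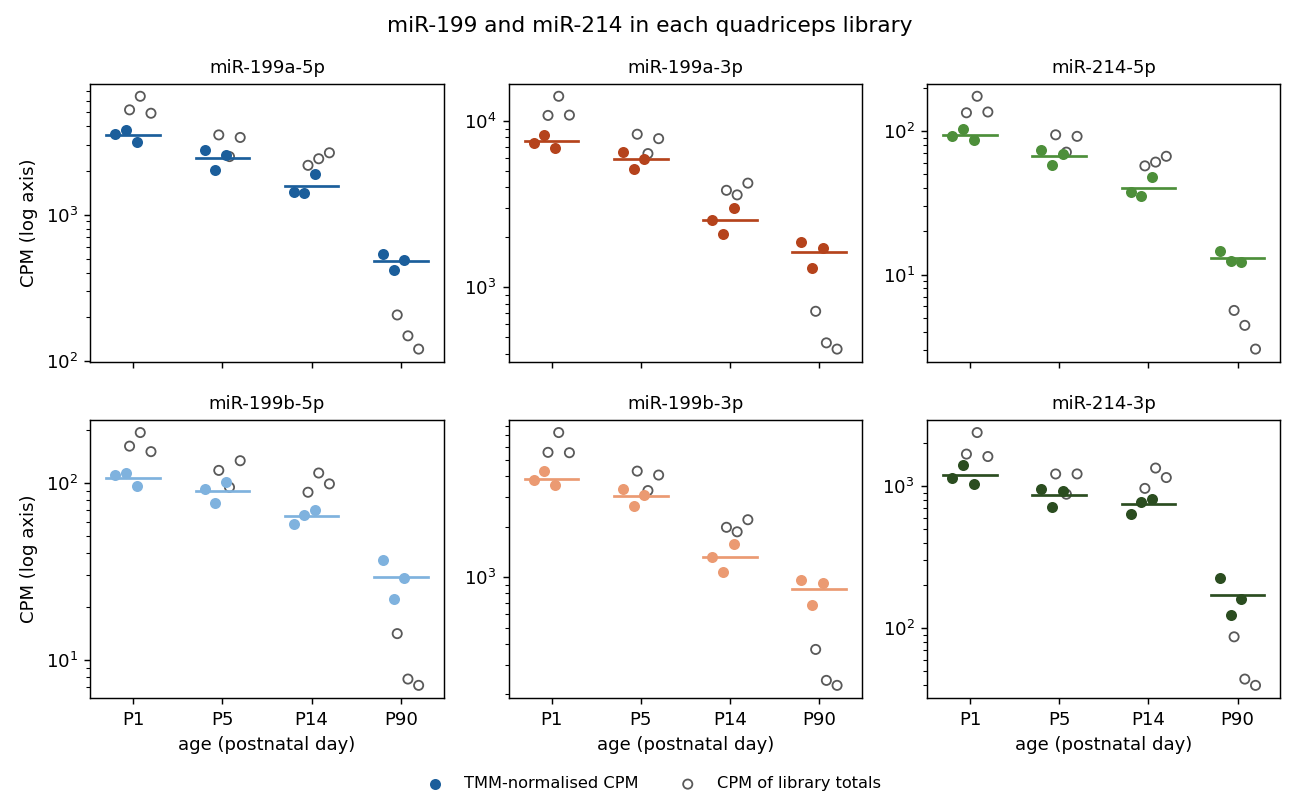
Level of each of the 6 miRNAs in every library, with age on the horizontal axis and CPM on a logarithmic vertical axis. Filled points are TMM-normalised CPM with a line at the mean of 3 libraries, open points are CPM of the library totals, and all 6 means decline at every step, with miR-199a-5p at 3141 to 3778 normalised CPM at P1 and 420 to 539 at P90.

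The size of the decline in each interval varied between the members. From P1 to P5, 0 of the 6 were called by edgeR after adjustment, beside 4.45% of the tested miRNAs (2.72% higher and 1.73% lower). All 6 had a lower mean at P5, with log2 fold changes from -0.24 for miR-199b-5p to -0.52 for miR-199a-5p, and 4 of them had an unadjusted p under 0.05, beside 7.42% of the tested miRNAs lower at that p. DESeq2 called 2 of them lower, beside 5.27% of the 588 miRNAs to which it gave an adjusted p, namely miR-199a-5p with a log2 fold change of -0.48 (DESeq2 adjusted p = 0.021) and miR-214-5p with -0.44 (DESeq2 adjusted p = 0.028). For miR-199a-5p the edgeR adjusted p was 0.078, and the 95% interval of its log2 fold change ran from -0.85 to -0.18.

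Between P5 and P14, 4 of the 6 fell, beside 44.4% of the tested miRNAs called, 26.3% lower and 18.0% higher. The miR-199 3p sequence led this interval, with a log2 fold change of -1.21 ± 0.16 for the summed counts (SE, edgeR adjusted p = 1.8e-05). The 5p arms followed with -0.63 for miR-199a-5p (edgeR adjusted p = 0.0042) and -0.74 for miR-214-5p (edgeR adjusted p = 0.0021). These calls of the 5p arms were lost with library totals alone, at -0.37 for miR-199a-5p (edgeR adjusted p = 0.14) and -0.48 for miR-214-5p (edgeR adjusted p = 0.098), and that of miR-199a-5p also with upper-quartile factors, at -0.35 (edgeR adjusted p = 0.088). For miR-199b-5p the log2 fold change of -0.47 was not called (edgeR adjusted p = 0.052), but it was in 10 of 21 alternatives, among them DESeq2 at -0.54 (DESeq2 adjusted p = 0.0055). There was no call for miR-214-3p, where the value was -0.21 (edgeR adjusted p = 0.44). The sign of the miR-214-3p value turned to 0.060 with library totals alone and to 0.071 with upper-quartile factors.

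From P14 to P90 all 6 fell, beside 59.1% of the tested miRNAs called, 36.7% lower and 22.4% higher. In this interval miR-214-3p had the most negative value, a log2 fold change of -2.13 (edgeR adjusted p = 2.6e-07), followed by miR-199a-5p at -1.70 (edgeR adjusted p = 1.5e-07), miR-214-5p at -1.61 (edgeR adjusted p = 6.6e-07) and miR-199b-5p at -1.15 (edgeR adjusted p = 7.2e-05). The rows of the miR-199 3p sequence declined least, by -0.64 for miR-199a-3p (edgeR adjusted p = 0.0032) and -0.63 for miR-199b-3p (edgeR adjusted p = 0.0041), near the median of -0.55 over all tested miRNAs. These calls for the 3p sequence were lost with DESeq2 and its size factors, where miR-199a-3p was at -0.28 (DESeq2 adjusted p = 0.13) and miR-199b-3p at -0.26 (DESeq2 adjusted p = 0.16). Both calls were also lost in edgeR with RLE size factors (edgeR adjusted p = 0.12 and 0.15). In a fit of these 2 ages alone they were lost as well (edgeR adjusted p = 0.082 and 0.1). With upper-quartile factors only miR-214-3p stayed called lower, at -0.55 (edgeR adjusted p = 0.031), beside 19.7% of the tested miRNAs. Under these factors the 3p rows were called higher, miR-199a-3p at 0.93 (edgeR adjusted p = 0.00011) and miR-199b-3p at 0.95 (edgeR adjusted p = 9.8e-05). The others were not called, with miR-199a-5p at -0.13, miR-214-5p at -0.031 and miR-199b-5p at 0.42, while all tested miRNAs had a median of 0.99.

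**Figure D2:**
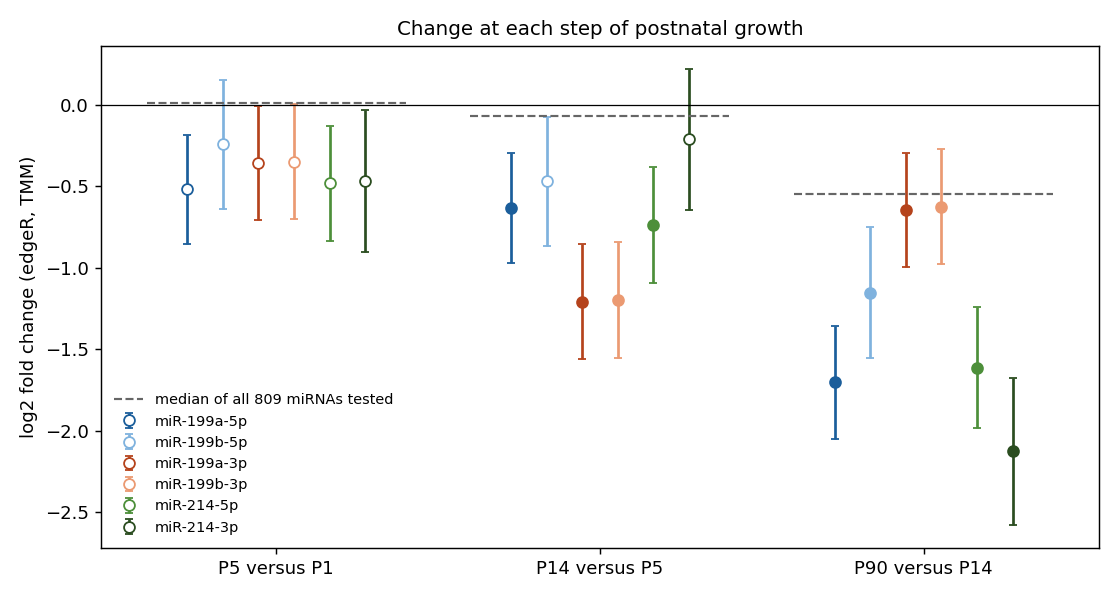
Log2 fold change of each miRNA (vertical axis) over the 3 successive intervals (horizontal axis), with bars for the 95% interval, filled points for miRNAs called by edgeR and dashed lines for the median of all 809 tested miRNAs. From P5 to P14 the 3p rows of miR-199 are lowest at -1.21 and -1.20 and miR-214-3p is highest at -0.21, and from P14 to P90 miR-214-3p is lowest at -2.13.

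The comparisons over longer intervals share their libraries with those above. From P1 to P14 all 6 fell, beside 49.1% of the tested miRNAs called (28.8% lower and 20.3% higher), with log2 fold changes from -0.68 for miR-214-3p to -1.57 for miR-199a-3p. With upper-quartile factors 4 of the 6 were called lower, beside 22.4% of the tested miRNAs, and miR-214-3p at -0.37 (edgeR adjusted p = 0.16) and miR-199b-5p at -0.40 (edgeR adjusted p = 0.088) were not. From P5 to P90 all 6 fell as well, beside 63.2% called (38.3% lower and 24.8% higher), with values from -1.62 for miR-199b-5p to -2.35 for miR-214-5p. With upper-quartile factors 2 of the 6 were called lower, beside 22.6% of the tested miRNAs, miR-199a-5p at -0.48 and miR-214-5p at -0.49. The others were not called, with miR-214-3p at -0.48 (edgeR adjusted p = 0.053), miR-199a-3p at -0.0023, miR-199b-3p at 0.023 and miR-199b-5p at 0.24.

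From P1 to P90 the size of the fall depended on the scaling. With library totals alone, the log2 fold changes ran from -4.12 to -5.12, and the median of all tested miRNAs was -2.97. With upper-quartile factors, miR-199a-5p was at -0.97, miR-214-5p at -0.94 and miR-214-3p at -0.92, and these 3 were still called lower, beside 23.7% of the tested miRNAs. Under the same factors miR-199a-3p was at -0.33, miR-199b-3p at -0.30 and miR-199b-5p at 0.018, none of them called, and the median of all was 1.18. Relative to the median of all tested miRNAs, the log2 fold changes of the members lay between -1.15 and -2.14 with TMM factors. A scaling factor moves all miRNAs of a library alike, so this difference is set by construction to be nearly the same under every scaling. A fall of the absolute amount per muscle was not measured.

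**Figure D3:**
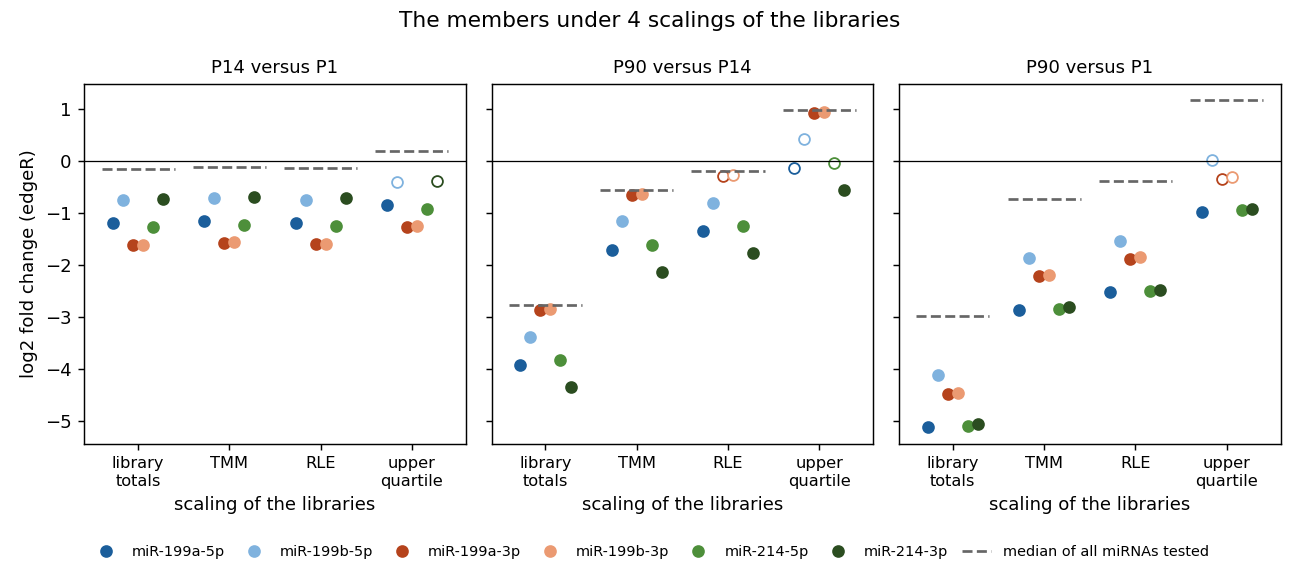
Log2 fold changes of the 6 miRNAs (vertical axis) in 3 comparisons under 4 scalings of the libraries (horizontal axis), with filled points for calls by edgeR and dashed lines for the median of all tested miRNAs. In P90 versus P1 that median moves from -2.97 with library totals to 1.18 with upper-quartile factors, and the members move with it, since a scaling factor acts on all miRNAs alike.

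Ratios of counts within a library are free of the scaling, and 4 of them were compared across the ages by an exact permutation test over 15400 partitions of the 12 libraries, with p-values adjusted over the 4. The first was the share of the 5p arms in all miR-199 counts, with a and b added. It was 24.6%, 23.6% and 23.6% in the P1 libraries, 22.3%, 21.1% and 22.7% at P5, 28.0%, 31.6% and 29.9% at P14, and 16.9%, 18.2% and 16.4% at P90. No ages overlapped, and the share was highest at P14 and lowest at P90 (exact permutation p = 6.49e-05, the smallest this test can give, adjusted p = 0.00026). The 95% Wilson intervals were at most 0.373 percentage points to either side.

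The base composition of the miRNAs moved with this ratio. Over 309 miRNAs with a known mature sequence, the trend of level with GC content was 0.378 to 0.562 log2 units per 10 GC points at P14 and -0.382 to -0.595 at P90, and between -0.0113 and 0.0759 in the libraries of P1 and P5. The GC content was 52.2% for miR-199a-5p, 40.9% for the miR-199 3p sequence, 54.5% for miR-214-5p and 59.1% for miR-214-3p. With each library's GC trend removed, the 5p share of miR-199 was 23.3% for P1, 21.8% for P5, 23.1% for P14 and 23.5% for P90, and the ages no longer differed by the test (exact permutation p = 0.443). The trend differed between ages and was estimated from the same libraries. A GC bias and a change of GC-rich miRNAs with age therefore cannot be told apart in any corrected value.

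The uneven timing of the members narrowed with the same correction, which has the same limit. Between P5 and P14, the corrected log2 fold change of miR-214-3p was -0.68 and passed the test (edgeR adjusted p = 0.0053), beside -0.92 for miR-199a-3p, -0.81 for miR-199a-5p and -1.01 for miR-214-5p. Between P14 and P90 the corrected values were -1.31 for miR-199a-5p, -1.29 for miR-199a-3p, -1.09 for miR-214-3p and -0.99 for miR-214-5p. From P1 to P90 they lay between -2.21 for miR-214-3p and -2.62 for miR-199a-5p, all called lower. No corrected value was computed for miR-199b-5p.

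The arms of the miR-214 hairpin differed less clearly between ages. The 5p arm made up 7.39%, 6.83% and 7.75% of the miR-214 counts at P1, 7.17%, 7.51% and 7.01% at P5, 5.60%, 4.34% and 5.48% at P14, and 6.06%, 9.15% and 7.08% at P90. The P14 libraries lay below all others, and the other ages overlapped (exact permutation p = 0.0338, adjusted p = 0.0338). With the GC trend removed the exact permutation p was 0.0911. On leaving out 1 library the test passed in 4 of 12 cases, with exact permutation p-values from 0.0063 to 0.174, the highest without P14 replicate 2. The 3p arm exceeded the 5p arm 12.7-fold for P1, 12.8-fold for P5, 18.7-fold for P14 and 12.8-fold for P90 in counts.

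Because miR-214-3p and part of miR-199a-5p come from the Dnm3os transcript, their ratio was followed too. The log2 ratio of miR-214-3p to miR-199a-5p counts was -1.56 ± 0.11 for P1, -1.50 ± 0.03 for P5, -1.08 ± 0.20 for P14 and -1.54 ± 0.26 for P90 (SD, n = 3). The P14 libraries were above all libraries of the other ages (exact permutation p = 0.0311, adjusted p = 0.0338), a test that passed in 6 of 12 cases on leaving out 1 library, with exact permutation p-values from 0.00344 to 0.119. With the GC trend removed the order changed, to -1.59, -1.51, -1.38 and -1.19 from P1 to P90, with a highest ratio at P90 and an exact permutation p of 0.0206. The course of the ratio over the ages thus differed between these calculations.

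The share of miR-199b-5p in the 5p counts of both genes rose with age. It was 3.01%, 2.91% and 2.96% at P1, 3.25%, 3.65% and 3.81% at P5, 3.92%, 4.51% and 3.60% at P14, and 6.37%, 4.97% and 5.60% at P90. All ages were separated except P5 and P14 (exact permutation p = 0.000195, adjusted p = 0.00039), and the largest p on leaving out 1 library was 0.00195. The intervals for counting error were at most 0.571 percentage points. The effect of reads assigned to the wrong gene on this share was not tested, and no GC-corrected ratio was computed.

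**Figure D4:**
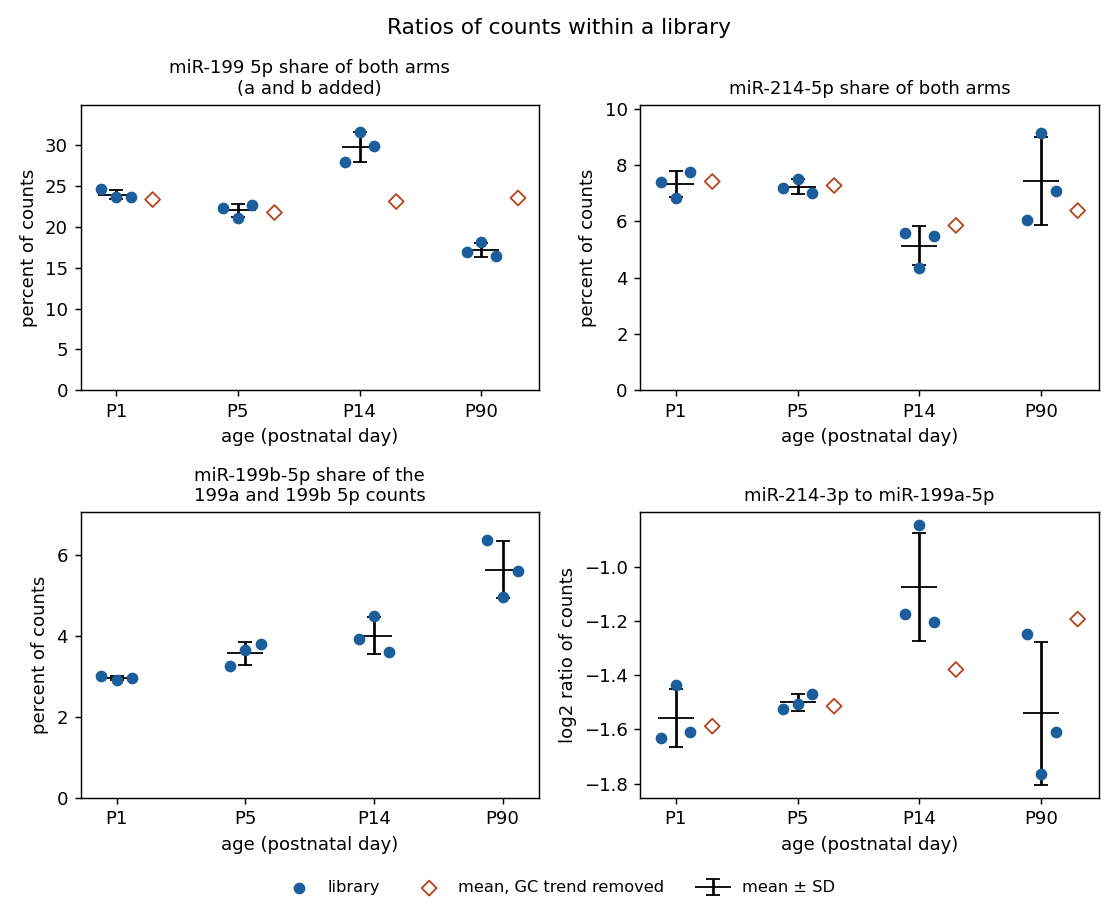
The 4 ratios of counts within a library (vertical axes, percent of counts or log2 ratio) by age (horizontal axes), with points for libraries, bars for mean ± SD of 3 and open diamonds for the mean after removal of the GC trend where it was computed. The 5p share of miR-199 runs from 29.8% at P14 to 17.2% at P90 in the deposited counts and is between 21.8% and 23.5% at all ages with the trend removed.

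Other miRNAs linked to mesenchymal and matrix-producing cells were followed in a list of 20, all of them tested. At P90 9 were higher than at P1, 9 were lower and 2 were not called, beside 25.2% of all tested miRNAs higher and 41.2% lower, with a median log2 fold change of -0.43. With library totals alone 4 were higher and 16 lower, and with upper-quartile factors 11 were higher and 5 lower. Lower with TMM factors were miR-335-3p, from an intron of the imprinted gene Mest, at -5.07, miR-455-5p at -3.91 and miR-455-3p at -1.51, both from an intron of the collagen gene Col27a1, and miR-152-3p, a repressor of Dnmt1, at -1.59. The most negative value of the list was that of miR-127-3p, at -5.25. Lower too were miR-541-5p at -5.03, miR-335-5p, which fell 31.9-fold, miR-34c-5p at -0.98 and miR-140-3p, described below. With upper-quartile factors miR-335-3p at -3.18 and miR-455-5p at -2.03 were still called lower, while miR-455-3p was at 0.38 and miR-152-3p at 0.30, neither called. Under these factors miR-127-3p at -3.37, miR-541-5p at -3.15 and miR-335-5p at -3.12 also stayed lower, and miR-34c-5p was called higher at 0.88. Higher with TMM factors were the 3 miR-29 members, which repress collagen mRNAs, with miR-29a-3p at 5.70, miR-29b-3p at 6.23 and miR-29c-3p at 6.67. The smooth muscle miRNAs miR-143-3p at 1.87 and miR-145a-5p at 1.82 were higher too. Also higher were miR-22-3p at 4.61, miR-145a-3p at 1.56, miR-143-5p at 1.04 and miR-21a-5p at 0.57. With library totals alone the 3 miR-29 members were still called higher, with miR-29a-3p at 3.40, while miR-143-3p turned to -0.41 and miR-145a-5p to -0.45. With miR-21a-5p, a miRNA of fibrotic tissue, the log2 fold change was -1.64 from P5 to P14 and 2.17 from P14 to P90, each called by edgeR, and the second value was -0.08 with library totals alone. Of the same 20, 2 were higher and 1 lower between P1 and P5, beside 2.72% and 1.73% of all tested miRNAs, and the lower call, miR-455-5p, was lost with RLE size factors and with upper-quartile factors, while with library totals alone 0 were higher and 1 was lower. Between P5 and P14, 3 were higher and 5 lower, beside 18.0% and 26.3%. Between P14 and P90, 9 were higher and 6 lower, beside 22.4% and 36.7%, with 4 higher and 14 lower by library totals alone and 13 higher and 4 lower by upper-quartile factors.

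Within the list, miR-152-3p was chosen after its values were seen. Its fall from P5 to P14 was close to that of the miR-199 3p sequence. Its level was 1023 ± 172 normalised CPM for P1, 794 ± 69.7 for P5, 363 ± 79.8 for P14 and 341 ± 4.22 for P90 (SD, n = 3). Its log2 fold change was -1.13 from P5 to P14 (edgeR adjusted p = 6.8e-05) and -0.09 from P14 to P90 (edgeR adjusted p = 0.67), the latter turning to 1.49 with upper-quartile factors. From P14 to P90 the summed miR-199 3p counts differed from this, at -0.68 with TMM factors (edgeR adjusted p = 0.0016).

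A cartilage miRNA in the list varied between libraries of the same age. The level of miR-140-3p, whose host hairpin lies in Wwp2 and which is known from chondrocytes, was 1907, 4446 and 296 normalised CPM in P1 replicates 1, 2 and 3, a range of 15-fold. Within P1 the 6 miRNAs ranged only 1.18-fold to 1.36-fold, but all 6 placed the 3 libraries in the same order as miR-140-3p did. At P5, where miR-140-3p ranged 3.86-fold, 5 of the 6 followed its order, at P14 2 of 6 and at P90 0 of 6. The share of all tested miRNAs in the same order was not counted, so these counts have no background. The 6 are also not independent, as the miR-199a-3p and miR-199b-3p rows hold the same molecule. The part of this variation in the decline was not tested beyond leaving the highest library out. Without P1 replicate 2, all 6 remained called lower at P90, with log2 fold changes from -1.86 for miR-199b-5p to -2.83 for miR-199a-5p. From P1 to P90 miR-140-3p itself was lower by -2.25 ± 0.75 on the log2 scale (SE, edgeR adjusted p = 0.015), and miR-140-5p was not called at -1.52 (edgeR adjusted p = 0.056). With upper-quartile factors neither was called, at -0.39 and 0.34.

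The markers of other cell types had higher or overlapping levels at P90 by normalised CPM, apart from those of epithelium. The summed endothelial markers, miR-126a-3p and miR-126a-5p, stood at 3353 to 4367 normalised CPM at P1 and 9661 to 12990 at P90. The smooth muscle markers went from 16760 to 19740 at P1 up to 57060 to 73287 at P90, and the 6 blood cell markers were at 513 to 707 and at 619 to 786. The 5 epithelial markers were at 59.2 to 88.9 at P1 and at 27.7 to 30.9 at P90. By CPM of the library totals the endothelial markers were at 5704 to 6380 at P1 and 3208 to 4525 at P90, the smooth muscle markers at 26274 to 30223 and 18096 to 24214, and the blood cell markers at 749 to 1203 and 153 to 279, so that the direction for these 3 lists depended on the scaling. On that scale the members were 17.4-fold to 34.7-fold lower at P90. All markers of these lists were detected at each age.

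The miRNAs whose pattern was most like that of 3 members were picked from 344 candidates by Pearson's r of log2 normalised CPM over the 12 libraries, which share depth, composition and age. For miR-199a-5p they were miR-1983 (r = 0.988), miR-485-3p (r = 0.985), miR-224-5p (r = 0.983), miR-421-3p (r = 0.980) and miR-335-3p (r = 0.980). For miR-199a-3p they were miR-410-5p (r = 0.982), miR-154-3p (r = 0.981), miR-503-5p (r = 0.975), miR-376b-3p (r = 0.974) and miR-542-3p (r = 0.972). For miR-214-3p they were miR-351-3p (r = 0.988), miR-669c-5p (r = 0.987), miR-467d-5p (r = 0.980), miR-379-3p (r = 0.979) and miR-652-3p (r = 0.979). No miRNA stood in more than 1 of these sets. At P90, miR-410-5p had only 1 to 10 counts per library and miR-351-3p 2 to 18, near the floor of 3 counts. The measure ignores the size of a change, and the log2 fold changes of these miRNAs from P1 to P90 ran from -2.09 for miR-421-3p to -7.62 for miR-376b-3p, with miR-224-5p at -2.40 and miR-652-3p at -2.20 near the members. With upper-quartile factors the range was -0.21 to -5.75 for the same pair of miRNAs at its ends, and with library totals alone it was -4.36 to -9.91. Among the members themselves r was 0.998 between miR-199a-5p and miR-214-5p and 0.861 between miR-199a-3p and miR-214-3p.

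The start of the Dnm3os transcript is shown because miR-214 and miR-199a-2 depend on it. The window at chr1:162217373-162217672 on the plus strand (GRCm38.p6, RefSeq), 250 bases before the start and 50 after it, held 1 match to the CArG box CCATATATGG, printed in capitals, which is the element bound by serum response factor. The match ended 24 bases before the start.
Dnm3os: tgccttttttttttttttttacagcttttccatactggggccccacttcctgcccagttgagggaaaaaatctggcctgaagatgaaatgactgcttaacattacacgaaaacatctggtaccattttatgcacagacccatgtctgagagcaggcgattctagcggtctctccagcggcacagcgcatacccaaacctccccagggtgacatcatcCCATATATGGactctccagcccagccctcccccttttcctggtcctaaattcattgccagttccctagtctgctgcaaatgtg
A CArG box was found in 1.63% of 32851 promoter windows of this length. The same window held 3 E-boxes of the form CANNTG, the element of basic helix-loop-helix factors such as Twist1, which 72.3% of all windows held. These are matches of letters, and no binding was measured.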

How the data were processed

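Per the labels and the study's methods, total RNA of quadriceps was made into small RNA libraries. The authors selected reads by length with cutadapt 1.18, aligned them to GRCm38 with Bowtie2 2.4.1 and counted reads of each mature miRNA with featureCounts 2.0.1. The deposited values are raw counts, without normalization, of which 424 of the 1966 rows were at 0 in all libraries. How reads with several matches and their strand were treated is not given in the sources used here. Reads carry no molecular identifiers in this table, so intervals cover counting error only.

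Counts were filtered with filterByExpr, scaled by TMM and fitted over all 12 libraries with 4 age means in edgeR 4.0.16 (R 4.3.3), using quasi-likelihood tests with Benjamini-Hochberg adjustment over 809 miRNAs at a threshold of 0.05. The fit was tested on simulated counts drawn from the P1 means, with 200 miRNAs changed at P90 in both directions. This setting lacks the change in composition of the real P90 libraries, so it does not test the scaling there. DESeq2 1.42.0, other scalings, no filter, a GC correction, a replicate block, the 2 compared ages alone and the loss of each library were alternatives. Ratios were tested by exact permutation in Python 3.11.15 with scipy 1.17.1, two-sided through the sum of squares between ages. No replicate pair agreed within sampling noise (chi-square per degree of freedom 104.6 to 749.9).

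The CArG box was searched as CC, 6 bases of A or T and GG, the E-box as CANNTG, each on both strands. Mature sequences, hairpins and the promoter came from RefSeq (GRCm38.p6), where 1675 of the 1966 names matched. Exons and introns were taken by gene name from the GENCODE annotation. Genes named are the members, seed mates, opposite-strand hairpins, for 3 members the 5 miRNAs of mean normalised CPM of at least 10 with the highest r (pseudocount 1), and a list of 20 mesenchymal and matrix miRNAs. Of the marker lists, neurons (miR-9-5p and miR-124-3p) summed to at most 342 normalised CPM in any library. The members, lists and markers were chosen with earlier results of these data known.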

Additional observations from a re-analysis of the deposited data

How the results depend on the processing

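Of the counts of members called, most stayed within 1.5 times of the value reported under the 23 alternatives. Between P1 and P5, 1 was called lower with library totals alone and with no filter on low counts, and 2 were with DESeq2 and in a fit of these 2 ages alone. With library totals alone 2 were lower between P5 and P14. With upper-quartile factors 2 were higher and 1 lower between P14 and P90, 2 were lower between P5 and P90, and 3 were lower between P1 and P90. Within the 1.5 times, the miR-199 3p rows lost their calls between P14 and P90 with RLE size factors, DESeq2 and the 2-age fit. Signs turned for miR-214-3p between P5 and P14 (0.060 with library totals, 0.071 with upper-quartile factors). Under upper-quartile factors they also turned for miR-199a-3p (0.93), miR-199b-5p (0.42) and miR-199b-3p (0.95) between P14 and P90, for miR-199b-5p (0.24) and miR-199b-3p (0.023) between P5 and P90, and for miR-199b-5p (0.018) between P1 and P90. In these scalings the median of all tested miRNAs moved with them, from -2.97 to 1.18 between P1 and P90, and 67.1% of calls were higher with upper-quartile factors and 5.27% with library totals. Leaving out each library in turn kept all members called lower in P90 versus P14, P5 and P1, and gained the call of miR-199b-5p between P5 and P14 in 6 of 12 cases. Across the ages, miR-199b-5p lost its call with upper-quartile factors (edgeR adjusted p = 0.15).

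Among all miRNAs, 36 were called between P1 and P5, and this count was unstable, at 62 with no filter, 81 with DESeq2, 87 in a fit of these 2 ages alone, 10 on leaving out P1 replicate 2, 11 on leaving out P5 replicate 2 and 8 on leaving out P5 replicate 3. The replicate numbers did not pair the libraries, as 0 of 12 correlated best with their own number at every other age. With the replicate block 15 miRNAs were called between P1 and P5 (19 with the GC trend removed as well), and the exact permutation p was 0.0816 both for the miR-214 arm share and for the ratio of miR-214-3p to miR-199a-5p.

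The exact permutation p of the miR-214 arm share ran from 0.0063 to 0.174 on leaving out 1 library, and that of the ratio of miR-214-3p to miR-199a-5p from 0.00344 to 0.119. With the GC trend removed from the ratio, an alternative chosen after seeing the data, the exact permutation p was 0.0911 for the miR-214 arm share and 0.443 for the miR-199 arm share. The lowest count of any member was 147, and the effect of depth was not tested. The cause of each change was not tested.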
